A study of Mus musculus with 2 samples.

Results

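The 7 genes described here, Il17a, Il17f, Il22, Il23r, Ccr6, Il17ra and Il17rc, are the cytokines, lymphocyte receptors and tissue receptor subunits of the IL-17 and IL-22 axis. They were chosen by symbol among the 32285 genes of the count files, and each symbol named 1 gene. Their UMIs (unique transcript molecules) were read in single cells from SKG mice, taken at the Achilles enthesis, the attachment of that tendon to the heel bone. The tail suspension group, in which the hindlimbs are unloaded, and the non-tail suspension group had 1 library each. Both groups share the SKG background, a strain with a mutation in the T cell signalling kinase Zap70 that is prone to IL-17-dependent arthritis. The sources used here do not give the age or sex of the mice, any induction of arthritis, the length of suspension or the number of animals in each library. With 1 library per group there is no replicate, so no test was made, and every interval below covers counting error only.

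IL-17A and IL-17F are secreted as dimers by T cells and innate-like lymphocytes, and IL-22 often comes from the same cells. IL-23, acting through Il23r with Il12rb1, sustains the cells that make them, and Ccr6 guides such cells towards the chemokine Ccl20. Il17ra pairs with Il17rc to form the receptor for IL-17A and IL-17F, which in stromal cells induces neutrophil-attracting chemokines, Il6 and matrix metalloproteinases. IL-23 and IL-17 have been studied closely at the enthesis because both are linked to spondyloarthritis.

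On GRCm38 Il17a lies on chromosome 1 at 20730905-20734496 (plus strand), and Il17f lies 42649 bases further on at 20777146-20790617 on the minus strand. Il22 is on chromosome 10 at 118204942-118210047 (plus strand), Il23r on chromosome 6 at 67422932-67491855 (minus strand) and Ccr6 on chromosome 17 at 8236043-8257141 (plus strand). Il17ra and Il17rc are both on the plus strand of chromosome 6, at 120463247-120487559 and 113471427-113483140. No annotated gene overlaps any of the 7. Il22 has a near-identical copy, Iltifb, on the same chromosome, which had 0 UMIs in both libraries. How reads shared by the copies were counted is not given in the sources used here, so the level of Il22 is uncertain on that account.

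The promoter windows of the 3 cytokine genes are shown because Il17a and Il17f, neighbours on 1 chromosome, and Il22 had different values under the same comparison. Each RefSeq window (GRCm38.p6) runs from 250 bases before to 50 bases after the start of the gene in RefSeq, 5′ to 3′ on the strand of the gene. They lie at chr1:20730655-20730954 for Il17a, chr1:20784221-20784520 for Il17f and chr10:118204714-118205013 for Il22. The RefSeq start of Il17f lies inside the gene as annotated above, so its window does not border the end given there. Capitals mark matches on either strand to AGGTCA, a nuclear receptor half-site, to TGANTCA, an AP-1 motif, or to TTCNNNGAA, a STAT motif.
Il17a: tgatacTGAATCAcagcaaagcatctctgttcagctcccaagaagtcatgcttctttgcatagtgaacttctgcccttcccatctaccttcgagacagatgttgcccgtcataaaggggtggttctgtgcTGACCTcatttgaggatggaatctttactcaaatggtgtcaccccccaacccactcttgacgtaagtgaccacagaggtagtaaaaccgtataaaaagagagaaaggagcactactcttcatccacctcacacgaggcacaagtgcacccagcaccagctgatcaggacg
Il17f: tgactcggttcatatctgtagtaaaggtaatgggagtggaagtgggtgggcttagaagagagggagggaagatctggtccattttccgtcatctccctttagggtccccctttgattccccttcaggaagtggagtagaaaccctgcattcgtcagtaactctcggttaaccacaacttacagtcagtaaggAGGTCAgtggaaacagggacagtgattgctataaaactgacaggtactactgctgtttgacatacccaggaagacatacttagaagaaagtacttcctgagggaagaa
Il22: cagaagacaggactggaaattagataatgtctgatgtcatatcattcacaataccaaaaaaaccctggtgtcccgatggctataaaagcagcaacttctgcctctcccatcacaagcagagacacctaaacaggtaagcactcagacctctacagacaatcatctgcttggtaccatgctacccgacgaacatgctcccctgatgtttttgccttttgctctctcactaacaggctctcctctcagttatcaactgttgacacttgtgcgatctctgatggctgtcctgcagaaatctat
AGGTCA was found once in the Il17a window and once in the Il17f window, TGANTCA once in the Il17a window, and none of the 3 motifs in the Il22 window. No matches overlapped. Of 32851 windows of the same length, 16.3% held AGGTCA, 7.81% TGANTCA and 8.30% TTCNNNGAA. A match is a run of letters, and no binding was measured in these data.

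The tail suspension library held 14483 kept cells with a median of 8508 UMIs, and the non-tail suspension library 10947 cells with a median of 4758. The 2 libraries also differed in makeup: neutrophil-like cells were 9.33% of kept cells with tail suspension and 35.6% with non-tail suspension, and fibroblast-lineage cells 41.8% and 17.5%. Among kept cells, 40 barcode sequences occurred in both libraries, 1 of them in cells taken as lymphocytes.

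Cells with at least 2 UMIs of Cd3d, Cd3e and Cd3g together were taken as CD3 cells, 1257 with tail suspension and 895 with non-tail suspension, at similar depths of 6073 and 5856 UMIs per cell (medians). Those with at least 2 UMIs of Trdc and Tcrg-C1 together, constant-region genes of the gamma-delta T cell receptor, formed a small gate of 39 of the 1257 (3.1%) with tail suspension and 57 of the 895 (6.37%) with non-tail suspension. As a share of all kept cells they were 0.269% (95% exact interval 0.192 to 0.368) and 0.521% (0.395 to 0.674). The data do not settle whether these are gamma-delta T cells. UMIs of Trac, Trbc1 or Trbc2, the constant regions of the alpha-beta receptor, were present in 36 of the 39 cells and 55 of the 57. For Trac by itself the counts were 26 and 44 cells. Trdc itself reached 2 UMIs in 17 and 18 cells, and Tcrg-V6 and Trdv4, variable segments used by IL-17-producing gamma-delta cells of mouse tissues, had 0 UMIs with tail suspension and 1 UMI in all with non-tail suspension. Both segments were rare in all CD3 cells too, with 0 and 1 UMIs of Tcrg-V6 and 10 and 0 of Trdv4. Such low counts cannot decide what the gated cells are. Reads that Tcrg-C1 shares with its near-identical copies may have been split or dropped. These cells are therefore called Trdc or Tcrg-C1 high CD3 cells. At the edge of the gate, 19 and 27 of them had exactly 2 UMIs, while 59 and 75 CD3 cells just outside had 1.

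The CD3 gate was not pure. Of its cells, 490 with tail suspension and 398 with non-tail suspension fell outside T cell-like clusters, 199 and 215 of them in neutrophil-like clusters. The CD3 cells inside T cell-like clusters were shallower with tail suspension, unlike the pooled gate. Their medians were 4316 and 5480 UMIs, and 9 and 17 CD3 UMIs. All 11 neutrophil markers were detected in CD3 cells, at a summed 68959 CPM (UMIs per 1000000 UMIs of the same cells) with tail suspension and 68344 CPM with non-tail suspension. The 9 sheath fibroblast markers summed to 11259.6 and 2632 CPM, so their share differed between the libraries. Inside T cell-like clusters the same sums were 1597 and 2523 CPM for neutrophil markers and 1383 and 144 CPM for sheath markers. Their part in the results was not tested, and each main value is given inside those clusters too.

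Il17a was lower with tail suspension over all CD3 cells, in both gates and in the T cell-like cluster that held most of it. In CD3 cells it had 421 UMIs, or 34.0 CPM (95% Poisson interval 30.8 to 37.4), with tail suspension and 1313 UMIs, or 148 CPM (140.2 to 156), with non-tail suspension. The log2 ratio, taken here and throughout with tail suspension on top, was -2.12 (-2.28 to -1.96). Among the 5 cytokine and lymphocyte receptor genes, Il17a and Il23r were at least 2-fold lower in CD3 cells and none was 2-fold higher. In the same cells 5.22% of all genes measured (at least 20 UMIs over both libraries) were 2-fold lower and 7.27% were 2-fold higher. The genes measured had a median log2 ratio of 0.02.

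The difference lay in the number of positive cells as well as in UMIs per cell. Il17a was detected in 71 of 1257 CD3 cells (5.65%) with tail suspension and in 138 of 895 (15.4%) with non-tail suspension. After each cell was thinned to 2000 UMIs, leaving out 44 and 10 shallower cells, the shares were 3.13% and 9.83%. In neutrophil-like cells, which should lack the gene, 2 of 1351 (0.148%) and 3 of 3892 (0.0771%) had a UMI, at median depths of 4553 and 3021 UMIs. In all cells with fewer than 2 CD3 UMIs, a set that still holds some T cell-like cells, the shares were 0.0605% and 0.129%. Positive cells had a median of 2 Il17a UMIs with tail suspension and 3 with non-tail suspension, and 10 against 34 cells had 10 or more.

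In Trdc or Tcrg-C1 high cells Il17a stood at 124 CPM (93.2 to 161) with tail suspension and 448 CPM (395 to 507) with non-tail suspension, a log2 ratio of -1.86 (-2.30 to -1.43). It was present in 5 of 39 and 22 of 57 cells. In the other CD3 cells it stood at 30.7 CPM (27.6 to 34.0) and 128 CPM (120.0 to 135), a log2 ratio of -2.06 (-2.23 to -1.88). The gate had a higher level of Il17a than the rest of the CD3 cells in both libraries, and held 55 of the 421 UMIs and 254 of the 1313. In the gate the ratio was -0.99 (-1.44 to -0.56) when only its 31 and 51 cells in T cell-like clusters were counted, where the levels were 278 and 553 CPM. Those cells held 197548 of the 444421 UMIs of all genes in the gate with tail suspension. With non-tail suspension they held 408730 of 566884, so cells outside those clusters weigh more on the gate CPM with tail suspension. For the other CD3 cells in T cell-like clusters the log2 ratio of Il17a was -2.42 (-2.63 to -2.21). In both sets Il17a and Il23r were past 2-fold lower, and in the gate Il22 was past 2-fold higher (2.94, 1.16 to 5.34), from 18 and 3 UMIs. Inside T cell-like clusters Il17a in the gate was just under 2-fold lower. In the gate 10.6% of genes measured were 2-fold higher and 11.7% 2-fold lower, and in the other CD3 cells 7.06% and 4.99%.

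Most Il17a came from Cd4 cells. CD3 cells with Cd4 and no Cd8a or Cd8b1 UMI held 307 of the 421 UMIs with tail suspension and 891 of the 1313 with non-tail suspension, at 96.0 CPM (85.5 to 107) and 389 CPM (364 to 416). Cd8 cells stood at 24.9 and 113 CPM. CD3 cells with a UMI of Foxp3, the factor of regulatory T cells, stood lower, at 7.35 CPM in 226 cells and 34.4 CPM in 76 cells. Among CD3 cells with no Trac, Trbc1 or Trbc2 UMI, 355 and 330 in number, no Il17a UMI was found, which allows up to 0.845% and 0.909% of these cells to have a UMI and sets no limit on expression. These cells had a median of 2 CD3 UMIs, at the edge of the CD3 gate.

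Il17f, the partner that can dimerise with IL-17A, did not share a difference of the size seen for Il17a over all CD3 cells. It stood at 58.6 CPM (54.4 to 63.0) in CD3 cells with tail suspension and 61.7 CPM (56.6 to 67.1) with non-tail suspension, a log2 ratio of -0.08 (-0.24 to 0.09). The 2 intervals overlap. Without the top cell of each library the log2 ratio was -0.18 (-0.354 to -0.004), below 0. Positive cells were 88 of 1257 (7.0%) and 94 of 895 (10.5%), with medians of 3 and 2 UMIs. In Trdc or Tcrg-C1 high cells it stood at 74.3 and 49.4 CPM (0.59, -0.18 to 1.37), with 33 and 28 UMIs, so a difference was not detectable at this depth. Over all CD3 cells thinned to 2000 UMIs the log2 ratio of Il17f was 0.40 (0.08 to 0.72), so its direction is not fixed by these data. Inside T cell-like clusters Il17f was lower with tail suspension, at 112 and 154 CPM (-0.47, -0.65 to -0.28), and outside them it was higher, at 29.95 and 9.03 CPM (1.73, 1.29 to 2.20). Outside them 126 of the 241 UMIs with tail suspension were in 1 cell. That cell also held 107 Il17a and 21 Il22 UMIs and 38716 UMIs in all, and it clustered with sheath or lining fibroblast-like cells without being called a doublet.

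Il22, a cytokine that acts on epithelial and other non-haematopoietic cells, went the other way over all CD3 cells. It stood at 27.9 CPM (25.0 to 31.0) with tail suspension and 16.7 CPM (14.1 to 19.6) with non-tail suspension in CD3 cells, a log2 ratio of 0.74 (0.46 to 1.03), in 52 and 24 cells. In T cell-like clusters it was 69.9 and 33.9 CPM (1.04, 0.72 to 1.37). The ratio was larger in 1 of them, cluster 8 (2.27, described below), and the level of Il22 in CD3 cells outside cluster 8 is not given here. The values rest on few cells: 13 and 5 cells had 10 or more UMIs, and 1 cell held 38 of the 345 UMIs with tail suspension and 1 cell 46 of the 148 with non-tail suspension. Without these 2 cells the log2 ratio was 1.11. In Trdc or Tcrg-C1 high cells there were 18 and 3 UMIs, 15 of the 18 in 1 cell.

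**Figure D1:**
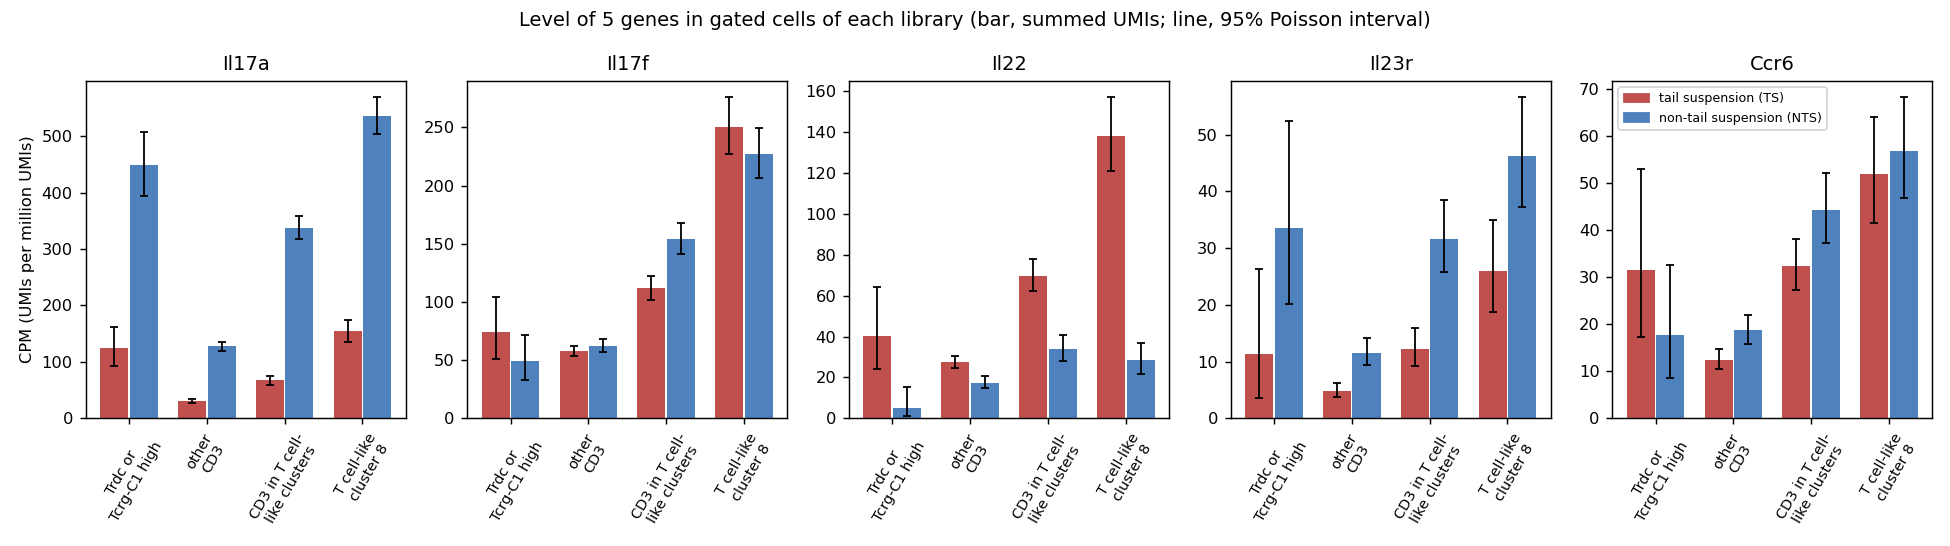
Level (CPM, linear axis from 0) of the 5 cytokine and lymphocyte receptor genes in 4 overlapping sets of cells, with bars for tail suspension left of non-tail suspension and lines for the 95% Poisson interval. Il17a is lower with tail suspension in all 4 sets (154 and 536 CPM in cluster 8), while Il22 is higher in all 4 and Il17f changes side between sets.

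The receptors of the lymphocytes followed Il17a in direction in CD3 cells. Il23r, the specific subunit of the IL-23 receptor, stood at 5.09 CPM (3.91 to 6.51) with tail suspension and 13 CPM (10.7 to 15.6) with non-tail suspension, a log2 ratio of -1.35 (-1.82 to -0.89), in 53 and 89 cells. Inside T cell-like clusters it was 12.2 and 31.7 CPM (-1.37, -1.88 to -0.88). In Trdc or Tcrg-C1 high cells 5 and 19 UMIs gave -1.57 (-3.35 to -0.11). Ccr6 stood at 13.2 CPM (11.2 to 15.3) and 18.6 CPM (15.9 to 21.7), a log2 ratio of -0.50 (-0.82 to -0.18), in 119 and 111 cells. In Trdc or Tcrg-C1 high cells it had 14 and 10 UMIs (0.84, -0.44 to 2.17), which leaves its direction there undetermined at this depth. Ccr6 was also found in B cell-like cells, which are known to carry it, at 21.7 CPM with 22 UMIs and 8.19 CPM with 6 UMIs.

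Joint clustering without the 7 genes placed T cell-like cells in 4 clusters. Cluster 8, led by Cd3g, Trbc2, Icos, Trac and Il7r, held most CD3 cells with a cytokine UMI, 98 of 151 and 162 of 196. This did not hold for each cytokine by UMIs. The cells with the most Il22, with 38 UMIs with tail suspension and 46 with non-tail suspension, were in cluster 11. Cluster 8 had 379 cells with tail suspension and 342 with non-tail suspension. Il17a stood there at 154 CPM (136 to 174) and 536 CPM (504.3 to 569), a log2 ratio of -1.80 (-1.998 to -1.60). Il17f stood at 251 and 227 CPM (0.14, -0.05 to 0.34), and Il22 at 138 CPM (121 to 157) and 28.6 CPM (21.7 to 37.1), a log2 ratio of 2.27 (1.85 to 2.72). Il23r stood at 25.9 and 46.2 CPM (-0.83, -1.39 to -0.30) and Ccr6 at 51.9 and 56.7 CPM (-0.13, -0.55 to 0.29). Over all T cell-like cells, Il17a and Il23r were again past 2-fold lower, where 9.28% of genes measured were 2-fold higher and 4.25% 2-fold lower. So within 1 cluster Il17a and Il22 had opposite ratios, Il17f lay near 0 and Ccr6 could not be told from no difference. Il17a was past 2-fold lower and Il22 past 2-fold higher there, where 7.53% of genes measured were 2-fold higher and 5.47% 2-fold lower. Cluster 11, led by Gzma, Ccl5 and Nkg7, held Il17a at 11.2 and 7.35 CPM from 20 and 10 UMIs (0.61, -0.56 to 1.86), so its direction there was not detectable. Cluster 24, led by Ctla4 and Tnfrsf4, held it at 11.3 and 13.2 CPM. The T cell-like class also holds cells with few CD3 UMIs. Cluster 26, led by Ctla2a, Gata3 and Il2ra, with 190 and 33 cells, had a median of 0 CD3 UMIs in both libraries. Cluster 11 had medians of 4 and 0. The part of this makeup in the values over all T cell-like cells was not tested.

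Counted by combinations, 151 CD3 cells (12%, 10.3 to 13.9) with tail suspension and 196 (21.9%, 19.2 to 24.8) with non-tail suspension had a UMI of at least 1 of the 3 cytokines. Such cells include those with a single UMI, which were 23 of 88 and 39 of 94 for Il17f and 21 of 52 and 12 of 24 for Il22. In neutrophil-like cells Il17f was seen in 4 of 1351 (0.296%) and 0 of 3892 cells, and Il22 in 2 of 1351 (0.148%) and 0 of 3892. Il17a alone was seen in 38 and 89 of the cells with a cytokine, Il17f alone in 41 and 44, and Il22 alone in 22 and 10. Il17a with Il17f but no Il22 was seen in 20 and 39 cells, Il17f with Il22 but no Il17a in 17 and 4, and all 3 in 10 and 7. Of the cells with Il17a, 30 of 71 (42.3%) and 46 of 138 (33.3%) also had Il17f, against 4.89% and 6.34% of CD3 cells without Il17a. Il23r was seen in 14 of 71 (19.7%) and 40 of 138 (29.0%), against 3.29% and 6.47%. Doublets can add to such pairs, and their part was not tested.

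**Figure D2:**
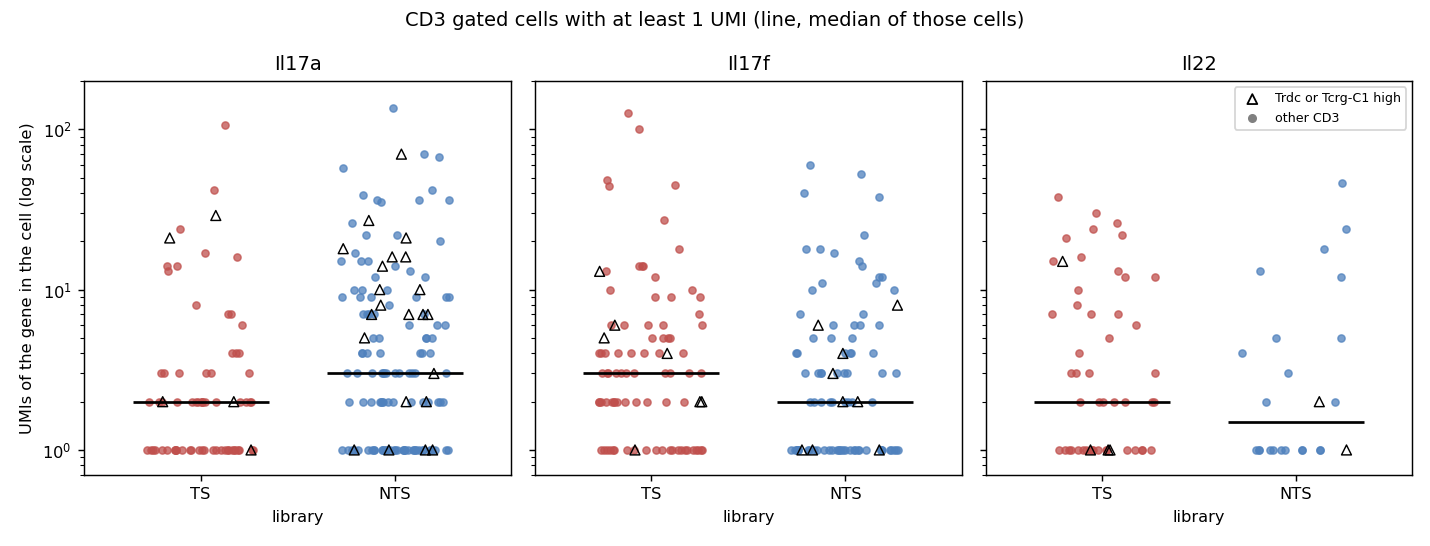
UMIs of Il17a, Il17f and Il22 in each CD3 cell with at least 1 UMI (log axis), tail suspension (TS) left of non-tail suspension (NTS), with triangles for Trdc or Tcrg-C1 high cells and a line at the median. The highest Il17a cells have 107 UMIs with tail suspension and 135 with non-tail suspension, and cells with 10 or more Il17a UMIs number 10 and 34.

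Genes known from type 17 lymphocytes were looked at beside the members in CD3 cells. Of 25 listed genes, all measured, 5 were higher with tail suspension and 20 lower, with a median log2 ratio of -0.34 against 0.02 for all genes measured. None was 2-fold higher and 6 were 2-fold lower, where 7.27% and 5.22% of all genes measured in CD3 cells were. The 3 with the lowest ratios were Cxcr6, a chemokine receptor of tissue-resident T cells, at 72.5 and 251 CPM (-1.79), 5830411N06Rik at 8.16 and 27.9 CPM (-1.77), and the water and glycerol channel Aqp3 at 7.19 and 20.7 CPM (-1.53). Il2ra, the alpha chain of the IL-2 receptor, stood at 145 and 92.6 CPM (0.65) and the transcription factor Maf at 199.7 and 133 CPM (0.59). T cell genes were lower in CD3 cells as well. Of 13 listed T cell subset genes, 3 were higher and 10 lower, with a median of -0.63. The 17 T cell markers summed to 2440 and 3834 CPM in CD3 cells and to 5771 and 9167 CPM inside T cell-like clusters. The part of this difference in the type 17 values was not tested. In cluster 8 the type 17 list gave 6 higher and 17 lower of 23 measured, none 2-fold higher and 8 2-fold lower. Its median there was -0.50, against -0.02 for all genes measured and 0.28 for the T cell subset list.

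Other lymphocyte cytokines and effectors also differed. Of 14 measured of 15 listed, 2 were higher and 12 lower in CD3 cells. Their median log2 ratio was -0.67, against 0.02 for all genes measured and -0.63 for the T cell subset list. Of the 14, 2 were 2-fold higher and 4 2-fold lower, where 7.27% and 5.22% of all genes measured in CD3 cells were. Ifng, the type 1 cytokine, stood at 7.11 and 116 CPM (-4.03, -4.36 to -3.72), below Il17a in ratio, and the granzyme Gzma at 17.8 and 80.3 CPM (-2.18). Il21 stood at 1.21 and 4.06 CPM (-1.74, -2.72 to -0.84). The type 2 cytokines were few: Il13 had 35 and 10 UMIs (1.33, 0.28 to 2.50), and Il5 had 31 UMIs with tail suspension and 0 with non-tail suspension. T cell genes differed too, with Trac at 201 and 288 CPM (-0.52) and Foxp3 at 50.9 and 27.0 CPM (0.92), so the makeup of the CD3 cells was not the same in the 2 libraries.

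**Figure D3:**
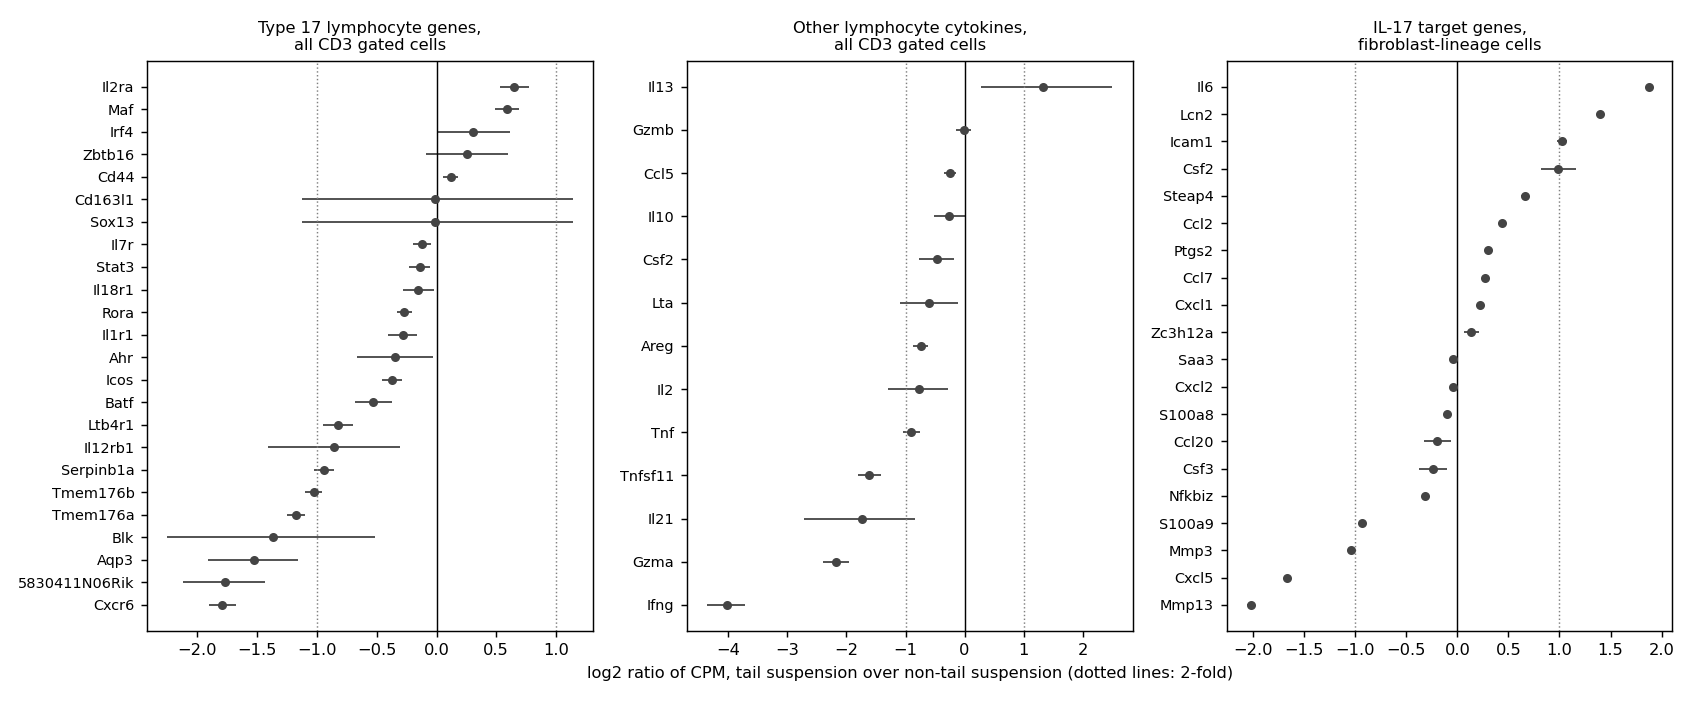
Log2 ratio of CPM, with tail suspension on top, for measured genes of 3 lists, with lines for the 95% counting interval and dotted lines at 2-fold (Il5, at 0 UMIs in 1 library, and 1 type 17 gene are left out). In CD3 cells most of the type 17 genes shown lie below 0, with Cxcr6 at -1.79, while the 20 IL-17 target genes of fibroblast-lineage cells lie 10 above and 10 below.

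Trdc or Tcrg-C1 high cells with Il17a were set against those without, and genes ranked by the lower of the ratios in the 2 libraries. The list was led by Tnfsf11, which encodes RANKL, Areg, which encodes amphiregulin, and H2-Aa, an MHC class II gene. Tnfsf11 stood at 27.2 against 4.91 CPM with tail suspension, where the first value is that of 1 UMI, and at 156 against 27.8 CPM with non-tail suspension. Areg stood at 217 against 24.5 CPM and at 243 against 49.4 CPM, and H2-Aa at 81.5 against 14.7 CPM and at 1094 against 241 CPM. Stmn1, Pclaf and Ezh2 came next, with Pclaf at 326 against 85.9 CPM and at 251 against 15.4 CPM. H2-Eb1, also an MHC class II gene, was in the list too. Its 27.2 CPM with tail suspension is again that of 1 UMI. The values of this list rest on 5 and 22 cells with Il17a and describe those cells only. The gate keeps called doublets, and the part of doublets in this list was not tested.

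Il17ra, the shared receptor subunit, was highest in neutrophil-like cells per UMI, among the named classes with at least 100 cells in both libraries. Per cell the order was not the same in both libraries, with 1815 UMIs in 1351 and 2835 UMIs in 3892 neutrophil-like cells, and 3909 UMIs in 4219 and 1220 UMIs in 865 fibroblast-like cells. In neutrophil-like cells it stood at 226 CPM (216 to 237) with tail suspension and 199 CPM (191 to 206) with non-tail suspension. Monocyte-like cells followed at 103 and 99.96 CPM, with overlapping intervals, then macrophage-like cells at 86.2 CPM (81.3 to 91.3) and 68.8 CPM (65.0 to 72.8). T cell-like cells stood at 73.0 and 45.9 CPM, the second value below that of fibroblast-like cells. Fibroblast-like cells stood at 72.7 and 53.9 CPM and sheath or lining fibroblast-like cells at 61.7 and 35.3 CPM. Tenocyte-like cells were at 25.0 and 45.1 CPM and blood endothelial-like cells at 19.9 and 19.1 CPM. Sheath or lining fibroblast-like cells (80 with non-tail suspension) and blood endothelial-like cells (86) are under the 100 cells set as the minimum for a comparison, and their values are given side by side only. With tail suspension T cell-like and fibroblast-like cells did not differ beyond their intervals. An unnamed cluster led by Ccl3, Il1b and Acod1, with 72 and 1406 cells, had 229.7 and 209.9 CPM.

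The ratio of Il17ra in neutrophil-like and macrophage-like cells depended on the scaling. In neutrophil-like cells the log2 ratio was 0.19 (0.10 to 0.27), but it was -0.07 relative to the median of the genes, which was 0.25. In macrophage-like cells it was 0.33 (0.21 to 0.44), and -0.01 relative to a median of 0.33. Il17ra was under 2-fold in neutrophil-like cells, where 17.6% of genes measured were 2-fold higher and 12.4% lower, in monocyte-like cells (12.3% and 3.85%) and in macrophage-like cells (15.4% and 4.17%). In B cell-like cells (10.7% and 17.5%) Ccr6 was past 2-fold higher, and in dendritic cell-like cells (11.2% and 9.65%), with 85 cells in the non-tail suspension library, Il17ra was, at 63.4 and 30.3 CPM. Neither neutrophil-like nor macrophage-like cells gave a direction for Il17ra that held under both scalings. Inside clusters with at least 30 cells in both libraries, the log2 ratio was 0.18 (-0.06 to 0.42), 0.96 (0.75 to 1.18) and 0.02 (-0.38 to 0.39) in neutrophil-like clusters 15, 16 and 19. It was 0.64 and 0.60 in macrophage-like clusters 2 and 10. Different clusters also held these classes: neutrophil-like cells with tail suspension were mostly in clusters 15 and 16 and those with non-tail suspension in clusters 19 and 29, and macrophage-like cells mostly in cluster 10 and cluster 2. In fibroblast-lineage cells Il17ra stood at 65.9 CPM (64.2 to 67.6) and 48.5 CPM (46.6 to 50.5), a log2 ratio of 0.44 (0.37 to 0.51). Within 7 clusters of that lineage with at least 30 cells in both libraries, 3 had a higher and 4 a lower level, and the mean of the log2 ratios was 0.06. The values ran from -0.77 in tenocyte-like cluster 13, with 104 and 925 cells, to 0.81 in sheath or lining fibroblast-like cluster 12, with 1126 and 80 cells. Fibroblast-like clusters 4, 5 and 6 lay at -0.14, -0.07 and -0.03, with intervals that include 0, so the pooled ratio and the ratios inside the main fibroblast clusters differ.

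Il17rc, the subunit that pairs with Il17ra, was mainly a stromal transcript and was lower with tail suspension over the pooled fibroblast lineage. In fibroblast-lineage cells it stood at 15.3 CPM (14.5 to 16.1) with tail suspension and 25.9 CPM (24.5 to 27.3) with non-tail suspension, a log2 ratio of -0.76 (-0.87 to -0.65). Fibroblast-like cells stood at 16.4 and 28.7 CPM (-0.81), tenocyte-like cells at 12.6 and 22.6 CPM (-0.85) and sheath or lining fibroblast-like cells, under the minimum of cells, at 13.6 and 33.4 CPM (-1.30, -1.64 to -0.94). Of the 7 lineage clusters, 6 had a lower level and cluster 21 a higher one (0.23, -0.92 to 1.61). Intervals below 0 were found in clusters 5, 12 and 13. When lineage cells were thinned to 2000 UMIs, leaving out 365 and 27 cells, the log2 ratio of Il17rc was -0.52 (-0.90 to -0.12). Both receptor subunits were under 2-fold in fibroblast-like cells, where 12.1% of genes measured were 2-fold higher and 7.46% lower, and in tenocyte-like cells (9.35% and 9.37%). In sheath or lining fibroblast-like cells Il17rc was past 2-fold lower, where 6.59% of genes measured were 2-fold lower and 9.11% 2-fold higher. The fibroblast lineage as a whole, where Il17rc was under 2-fold, had 6.14% lower and 10.7% higher.

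In the leukocyte classes Il17rc was near the limit of detection. Neutrophil-like cells stood at 0.62 and 0.70 CPM, monocyte-like cells at 0.997 and 0.439 CPM, macrophage-like cells at 1.11 and 0.56 CPM, and T cell-like cells at 3.03 and 3.26 CPM. B cell-like cells had 0 UMIs in 333 and 102 cells, which allows up to 0.901% and 2.94% of these cells to have a UMI and, at median depths of 2378 and 3722.5 UMIs, sets no limit on expression. Blood endothelial-like cells held 9.67 CPM (5.64 to 15.5) and 21.2 CPM (14.3 to 30.2), with 168 and 86 cells. Il17ra and Il17rc were thus both found in stromal and endothelial cells, while the leukocyte classes carried Il17ra with little Il17rc.

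**Figure D4:**
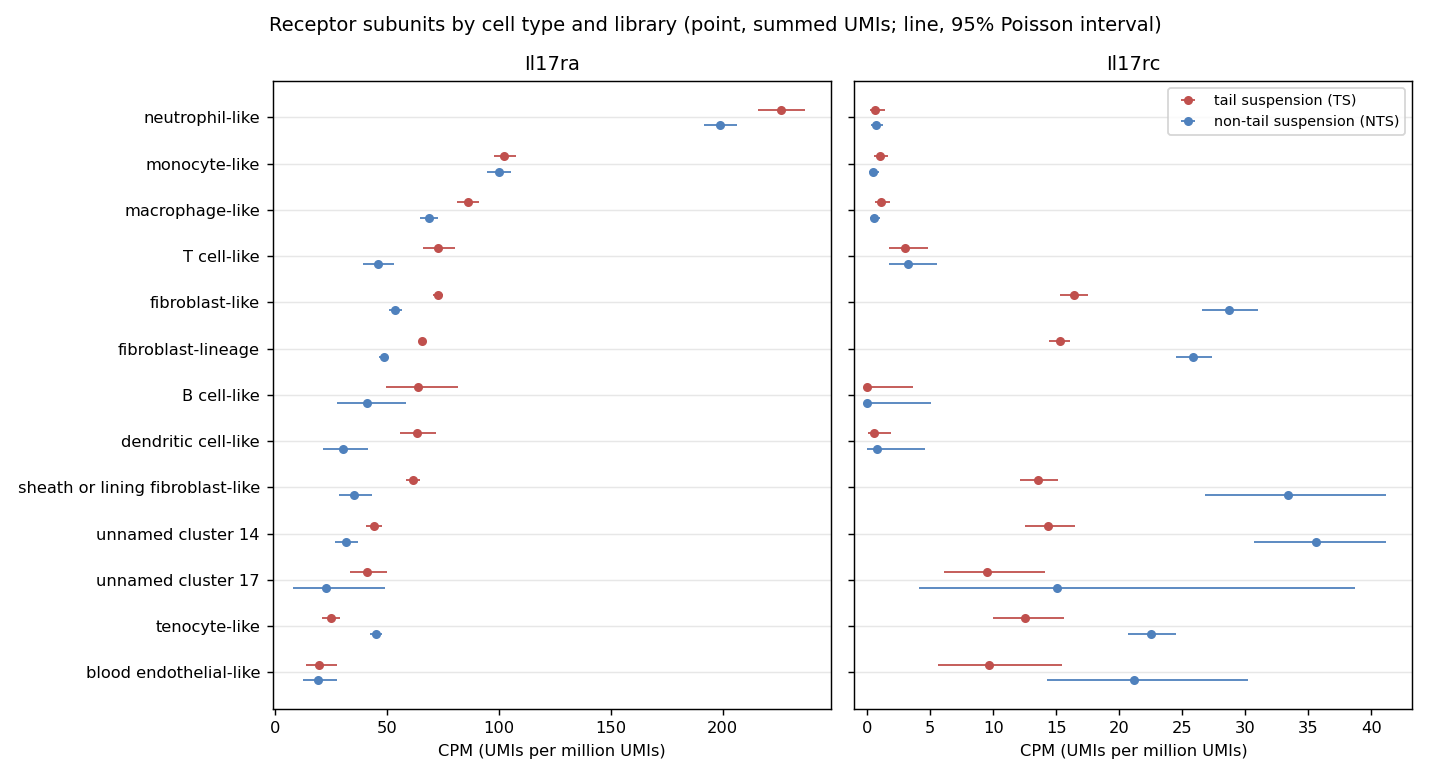
Level (CPM) of Il17ra and Il17rc in cell classes with at least 100 cells with tail suspension and 80 with non-tail suspension, tail suspension above non-tail suspension, with 95% Poisson intervals (fibroblast-lineage pools the tenocyte-, sheath or lining fibroblast- and fibroblast-like classes). Il17ra is highest in neutrophil-like cells (226 and 199 CPM) and Il17rc in stromal cells (15.3 and 25.9 CPM in the fibroblast lineage).

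**Figure D5:**
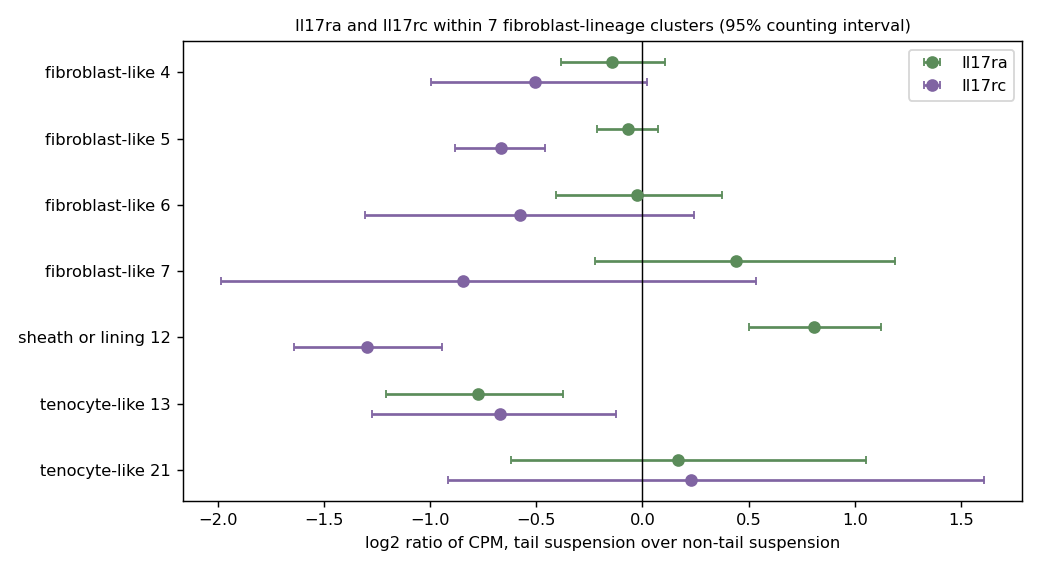
Log2 ratio of CPM, with tail suspension on top, of Il17ra and Il17rc inside 7 fibroblast-lineage clusters, with 95% counting intervals. Il17rc lies below 0 in 6 of 7 clusters, while Il17ra lies on both sides, from -0.77 to 0.81.

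Over 20 profiles of 13 cell classes by library, the genes most correlated with Il17ra in log2(CPM + 10) were Pfkfb4 (r = 0.84), Osgin1, Rasgrp4, Ebi3 and Fgd4, and with Il17rc they were Mypop (r = 0.98), Tmem98, Clip3, Npdc1 and Ryk. The profiles share libraries and depth, and the correlations describe cell types only.

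The rest of the pathway was followed in the fibroblast lineage. Of 14 listed adaptors and regulators of the receptor, 8 were higher and 6 lower, none by 2-fold, with a median of 0.09 against 0.07 for all genes. Traf3 stood at 22.8 and 14.9 CPM (0.61), Traf3ip2, which encodes the adaptor Act1, at 14.1 and 10.1 CPM (0.48), and Tnfaip3, which encodes the inhibitor A20, at 109.5 and 172 CPM (-0.65). Among 20 genes known as IL-17 targets, 10 were higher and 10 lower, with a median of 0.05. The cytokine Il6 stood at 642 and 175 CPM (1.88), the antimicrobial protein Lcn2 at 2067 and 783 CPM (1.40) and the adhesion molecule Icam1 at 167 and 82.2 CPM (1.02). The collagenase Mmp13 stood at 75.3 and 305 CPM (-2.02), the neutrophil attractant Cxcl5 at 489 and 1554 CPM (-1.67) and the stromelysin Mmp3 at 1122 and 2305 CPM (-1.04). These are pooled values, and not all held in the tenocyte-like cells of the lineage. There Mmp13 (0.46), Mmp3 (1.17), Il6 (-0.36) and Icam1 (-0.33) had the opposite sign, while Lcn2 (3.15) and Cxcl5 (-2.20) kept theirs. Cxcl5 and Mmp3 lead fibroblast-like cluster 5, which held 601 of the 6057 lineage cells with tail suspension and 663 of the 1913 with non-tail suspension. The part of this makeup in the pooled ratios was not tested. The list showed no common direction. It holds S100a8 and S100a9, which neutrophils express strongly, at 448 and 482 CPM and at 495 and 944 CPM. The 11 neutrophil markers summed to 1104 and 1658 CPM in these cells, and their part in the list was not tested.

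Of the other ligands of the family, Il17d stood at 16.8 and 6.60 CPM in fibroblast-lineage cells (1.34, 1.17 to 1.52), and Il17b had 18 and 6 UMIs there (0.84, -0.56 to 2.46). Il17re, a subunit found on type 17 lymphocytes, stood at 7.67 and 17.03 CPM in CD3 cells (-1.15, -1.54 to -0.77). Il22ra1, the specific subunit of the IL-22 receptor, had 0 UMIs in the fibroblast lineage in both libraries and in all kept cells, while its partner Il10rb stood at 27.0 and 34.4 CPM in the lineage (-0.35). Upstream, Il23a, which encodes the specific chain of IL-23, was rare: monocyte-like cells had 34 and 98 UMIs (2.12 and 7.17 CPM, -1.76), neutrophil-like cells 20 and 153 UMIs (2.49 and 10.7 CPM, -2.11) and macrophage-like cells 9 and 44 UMIs (0.67 and 2.48 CPM, -1.89). Il1b, which acts with IL-23 on type 17 cells, stood at 2632 and 4442 CPM in monocyte-like cells and 1335 and 7961 CPM in neutrophil-like cells. Monocyte-like cells were mostly in clusters 0 and 3 with tail suspension (792 and 1060 of 2030 cells) and in cluster 1 with non-tail suspension (800 of 1023), and Il1b is among the leading genes of cluster 1. It is also among those of neutrophil-like cluster 29, which held 3 of 1351 and 1029 of 3892 neutrophil-like cells. Il6 was higher with tail suspension in monocyte-like and macrophage-like cells, at 84.2 and 40.6 CPM in monocyte-like cells and 40.4 and 6.09 CPM in macrophage-like cells. Macrophage-like cells were mostly in cluster 10 with tail suspension and in cluster 2 with non-tail suspension. The part of cluster makeup in the Il23a, Il1b and Il6 values was not tested. Ccl20, the ligand of Ccr6, stood at 14.1 and 16.2 CPM in fibroblast-lineage cells.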

How the data were processed

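Single-cell RNA libraries of the tail suspension and non-tail suspension groups, 1 each, were analysed. The authors deposited whole-number UMI count matrices of genes by cells. Cell Ranger 5.0.1 and GRCm38 are listed in the submitters' processing notes; other settings are not given in the sources used here. The members and gene lists were chosen with earlier results of these data known.

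Barcodes under 300 genes or over 20% mitochondrial UMIs were dropped, leaving 14483 and 10947 of 15545 and 11430, with 164543056 and 120482408 UMIs. UMIs were summed over each set of cells, per library, and given as CPM with exact Poisson 95% intervals, shares with Clopper-Pearson intervals, and log2 ratios with exact conditional binomial intervals. No p-value was computed. The ratio and interval code was tested on simulated data. A gene counts as measured with at least 20 UMIs over both libraries, and 2-fold was the size counted.

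Cells were clustered jointly with scanpy 1.11.5 (2000 variable genes without the 7 members, 30 components, 15 neighbours, Leiden resolution 1.0) and clusters named from fixed markers. Scrublet called 492 cells (3.40%) and 133 cells (1.21%) as doublets, against expected rates of 12.4% and 9.14%, so doublets remain. They were left out of clusters but kept in the CD3 gates. Named genes are the members and, from each list, up to 3 measured genes with the highest and 3 with the lowest ratios, with further pathway genes chosen after their values were seen. Gene positions come from the GENCODE annotation of GRCm38 and promoter windows from RefSeq, which held 6 of the 7 members. The values of 1 listed gene are not reported here. The effect of the alternatives is given in the closing section.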

Additional observations from a re-analysis of the deposited data

Results flagged for a closer look

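Il17f, Ccr6 and Il17ra each had a ratio whose counting interval lay above 0 in some sets of cells and below 0 in others. With 1 library per group none of these differences between sets was tested, and all values are log2 ratios of tail suspension over non-tail suspension. Il17f was 1.73 in CD3 cells outside T cell-like clusters, where 1 cell held 126 of the 241 UMIs with tail suspension, against -0.47 in CD3 cells inside those clusters and -0.53 in all T cell-like cells. Ccr6 was 1.41 in B cell-like cells, from 22 and 6 UMIs, against -0.45 in CD3 cells inside T cell-like clusters and -0.46 in all T cell-like cells. Il17ra was -0.85 in tenocyte-like cells, of which 608 of 712 were in cluster 21 with tail suspension and 925 of 968 in cluster 13 with non-tail suspension, and within these clusters it was 0.17 and -0.77. In comparison it was 0.68 in CD3 cells inside T cell-like clusters and 0.24 in those outside them. It was 0.67 in T cell-like, 0.65 in B cell-like and 0.43 in fibroblast-like cells. In macrophage-like cells it was 0.33 and in neutrophil-like cells 0.19, and both turned to -0.01 and -0.07 relative to the median gene of the same cells.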

How the results depend on the processing

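Of 172 alternative values of 11 results, 126 stayed within the counting error of the value reported, 44 moved beyond it and 2 reversed. Values by share of cells, given below, are outside this count. The cause of the moves was not tested. Leaving out the top cell, using cluster 8, scaling within the same cells, leaving out neutrophil-like clusters and averaging within clusters were chosen after seeing the data. Reversed were Il17ra in neutrophil-like (-0.067) and macrophage-like cells (-0.0081) under scaling within the same cells. Not every change of sign is counted as reversed. In Trdc or Tcrg-C1 high cells Il17f, above 0 as reported, fell to -0.37 and -0.43 and is counted as moved. Ccr6 in those cells, also above 0 as reported, went as low as -0.22 and is counted as staying. The reported intervals of these Il17f and Ccr6 values include 0. Il17a in Trdc or Tcrg-C1 high cells was -1.35 as a mean over cells, -2.42 with the CD3 gate at 1 UMI, -2.62 and -1.24 with the Trdc and Tcrg-C1 gate at 1 and 3 UMIs, -5.52 with Trdc alone, -0.99 in T cell-like clusters and -2.46 without the top cell. Il17f there was 3.13 thinned to 1000 UMIs, -0.37 with the gate at 1 UMI and -0.43 with Trdc alone; Ccr6 was 2.82 with the gate at 3 UMIs and 2.38 with Trdc alone. Il17a in the other CD3 cells was -2.43 and -2.25 thinned to 1000 and 2000 UMIs, -2.29 as a mean over cells, -1.87 with the CD3 gate at 1 UMI, -1.85 with the second gate at 1 UMI, -1.88 without called doublets, -2.42 in T cell-like clusters, -2.36 without the top cell and -1.80 in cluster 8. Il22 in CD3 cells was 1.54 and 1.37 thinned to 1000 and 2000 UMIs, 1.27 as a mean over cells, 1.04 in T cell-like clusters, 1.11 without the top cell and 2.27 in cluster 8. The share of Trdc or Tcrg-C1 high cells had a log2 ratio of -0.95 as reported and -2.96 thinned to 1000 UMIs. Scaled over all kept cells, Il17ra was 0.28 in the fibroblast lineage, 0.029 in neutrophil-like and 0.17 in macrophage-like cells, and Il17rc was -0.92 in the lineage. Thinned to 1000 UMIs, lineage Il17ra was 0.28 and Il17rc -0.52; thinned to 2000 UMIs they were 0.19 and -0.52. As means within clusters they were 0.057 and -0.62, and Il17ra was 0.39 in neutrophil-like and 0.62 in macrophage-like cells. Il17ra in neutrophil-like cells was 0.088 thinned to 1000 UMIs, 0.32 with at least 1000 genes per cell and 0.093 with doublets kept, and 0.44 in macrophage-like cells at Leiden resolution 2.0. By share of cells with a UMI, at lineage median depths of 11701 and 24552 UMIs, lineage Il17ra was -0.44 (-0.54 at 2 UMIs), opposite in sign to its CPM, lineage Il17rc -1.29 (-2.25), neutrophil-like Il17ra 0.27 (0.91) and macrophage-like Il17ra -0.02 (-0.10). Scaling and means over cells give no value for a share of cells. No paired analysis was possible because each group has 1 library. Depth limits Il22, Il23r and Ccr6 in the gate, which rest on 3 to 19 UMIs per library.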
